A study of Mus musculus with 69 samples.

Results

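The cortical collecting duct 24 h after the surgical removal of the other kidney (unilateral nephrectomy, UNx) was compared with the same segment 24 h after a sham operation. All libraries labelled as cortical collecting duct at that time were taken, which gave 15 of the 69 libraries of the series: 8 from 4 sham mice and 7 from 3 UNx mice. The mice were wild-type male C57BL/6 animals from Taconic, 7 weeks old at the operation, and the labels name no other treatment. The tubules had been dissected by hand from the kidney, and cDNA was made from polyA RNA with a low-input SMART-Seq kit. Libraries that carry the same animal number were averaged, so that the animal is the replicate. Levels are given in TPM, a length-scaled abundance, as means over animals ± SD. TPM keeps no sequencing depth, so the depth behind each value is unknown.

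The collecting duct is the last cortical stretch of the tubule system. Its principal cells take up sodium through the epithelial sodium channel and water through aquaporins under the control of aldosterone and vasopressin, and its intercalated cells secrete acid or base with proton pumps and anion exchangers. After the loss of a kidney the remaining one enlarges, a process known as compensatory growth, which in tubule cells involves both an increase in cell size and some cell division. Cell division is driven by cyclins and cyclin-dependent kinases, and is held back by inhibitors of these kinases.

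The marker genes were those of the labelled segment in both groups. The principal cell gene Aqp2, the vasopressin-regulated water channel, lay between 10222 and 48634 TPM in the 7 animals, and the summed level of 16 intercalated cell markers lay between 9220 and 10916 TPM. Proximal tubule markers summed to 246 to 568 TPM in sham and 59.8 to 452 TPM in UNx. Thick ascending limb markers, mostly Umod, stood out in 3 sham libraries with sums of 440 TPM (animal 4), 1443 TPM (animal 1) and 6974 TPM (animal 2), against 62.5 to 210 TPM in the other 12 libraries. Erythrocyte markers summed to 144 TPM in sham animal 1 and to 0.365 to 17.1 TPM in the other animals. No member of the 10 marker lists passed the test of UNx against sham, and the part of these other cells in the results was not tested. The number of genes at 1 TPM or more was 13557 to 13957 in sham and 12992 to 13766 in UNx libraries. Mitochondrially encoded RNA took 1.93% to 2.81% of the sham and 1.24% to 2.39% of the UNx libraries. No pair of columns was identical (0 found), and each library had a median correlation of 0.962 to 0.971 with the others.

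At 24 h, genes of cell division were higher in UNx collecting ducts, with Pbk, Top2a, Birc5, Ube2c and Cdk1 between 1.85 and 2.34 higher on the log2(TPM + 1) scale, while the cyclin-dependent kinase inhibitor Cdkn1b was lower by 1.61 ± 0.18 (SE). The proton pump subunit gene Atp4a rose and the growth factor gene Kitl fell, and the groups of animals did not overlap for either. The genes of water and sodium transport that define the segment did not pass the test. Over 13775 genes with a mean of at least 1 TPM, 136 genes (0.987%) had an adjusted p under 0.05 in limma with Benjamini-Hochberg adjustment. Of these, 45 (0.327%) were higher and 91 (0.661%) lower in UNx.

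An unadjusted p under 0.05 was reached by 765 higher genes (5.55%) and 1373 lower genes (9.97%). The 3 UNx animals lay above all 4 sham animals for 764 genes (5.55%) and below them for 1310 genes (9.51%). The median log2 difference over all genes was -0.04. The count depended on every animal: 18 genes passed without sham animal 1, 41 without sham animal 2, 78 without sham animal 3, 26 without sham animal 4, 7 when either UNx animal 1 or UNx animal 2 was left out, and 78 without UNx animal 3. After quantile normalization 82 genes were higher and 83 lower, and after median-ratio scaling 78 were higher and 97 lower, so the excess of lower genes was smaller. Without the 3 libraries rich in thick ascending limb markers, 165 genes passed, 48 higher and 117 lower.

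**Figure D1:**
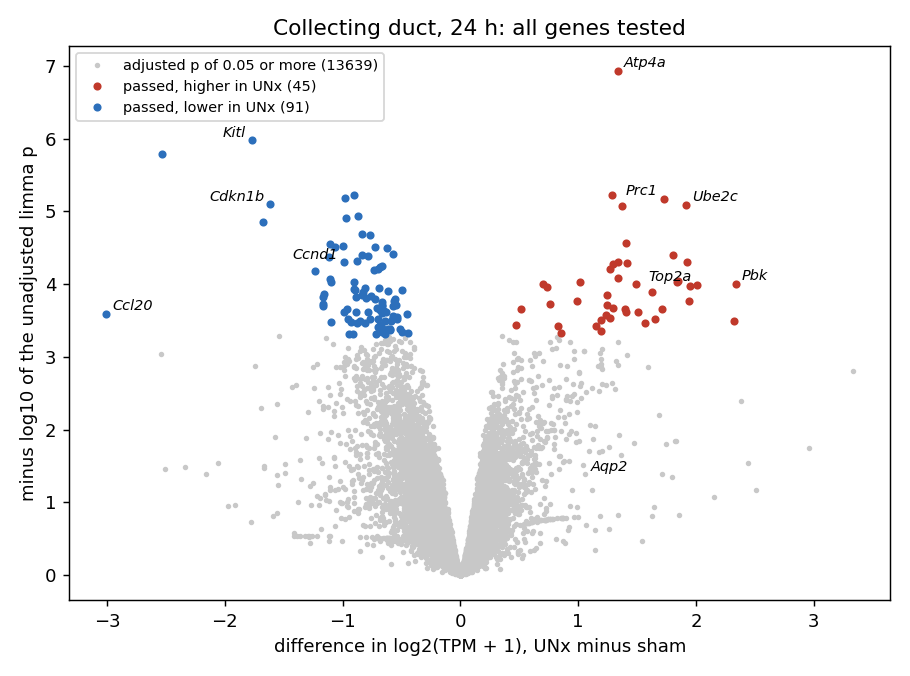
Difference in log2(TPM + 1) between UNx and sham (x axis) against minus log10 of the unadjusted limma p (y axis) for the 13775 genes tested, 1 point per gene. The 45 genes that passed on the right include Atp4a and genes of cell division, and the 91 on the left include Kitl and Cdkn1b, while Aqp2 lies among the genes that did not pass.

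The cell cycle list held 37 genes, all of them tested. Of these, 12 rose (Top2a, Birc5, Cdk1, Ccnb2, Prc1, Ccna2, Aurkb, Cdc20, Tk1, Plk1, Ccnb1 and Rrm2), 2 fell (Cdkn1b and Ccnd1) and 23 did not pass. The median member differed by 0.90, against -0.04 over all genes, and 29 members had an unadjusted p under 0.05 in the higher direction. The UNx animals lay above all sham animals for 26 members, against 5.55% of all genes. In dissected tubules, more cells that express a gene and more of its RNA per cell cannot be told apart. The 12 members that rose became 1 without sham animal 1, 7 without sham animal 2, 8 without sham animal 3, 2 without sham animal 4, 1 when either UNx animal 1 or UNx animal 2 was left out, and 5 without UNx animal 3. Without the 3 libraries rich in thick ascending limb markers, 10 rose.

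Genes of the mitotic spindle and of chromosome separation were among those that rose. Prc1, which bundles microtubules at the spindle midzone, was at 4.09, 5.18, 4.12 and 5.12 TPM in the sham animals and at 13.3, 22.8 and 15.5 TPM in the UNx animals. The lowest UNx animal was thus above the highest sham animal, and the difference of 1.73 ± 0.19 (SE) had an adjusted p of 0.0118 in limma. Prc1 was the only cell cycle list member whose call was kept with each of the 7 animals left out in turn. Top2a, the topoisomerase that untangles sister chromatids, was at 1.82, 4.48, 1.63 and 3.83 TPM in sham and at 9.81, 19.1 and 12.3 TPM in UNx. Birc5, the survivin subunit of the chromosomal passenger complex, was at 3.02, 5.59, 2.99 and 5.89 TPM in sham and at 12.3, 24.1 and 18.4 TPM in UNx. In both genes UNx animal 2 was the highest and the groups were apart. No overlap of animals was a condition for naming these and the other genes of largest difference. Aurkb, the kinase of that complex, rose from 3.32 ± 1.45 to 11.7 ± 2.67 TPM. With each animal left out in turn, Top2a passed in 1 and Birc5 and Aurkb in 2 of 7 cases each.

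Among kinases and cyclins that start mitosis, Cdk1, Ccnb2 and Plk1 rose. Cdk1, the kinase that drives entry into mitosis, was at 5.05, 9.97, 3.87 and 8.31 TPM in sham and at 21.1, 31.4 and 22.3 TPM in UNx. Its cyclin partner gene Ccnb2 was at 2.84, 3.69, 1.19 and 2.90 TPM in sham and at 10.8, 13.2 and 9.93 TPM in UNx. Neither gene overlapped between the groups, and their differences of 1.85 ± 0.28 and 1.81 ± 0.24 (SE) had limma adjusted p-values of 0.0283 and 0.0223. Plk1, a kinase of spindle assembly, rose from 2.05 ± 0.55 to 6.81 ± 0.81 TPM. These transcripts were low in level: the highest UNx animal of Cdk1 was at 31.4 TPM. With each animal left out in turn, Cdk1 passed in 2 of 7 cases and Ccnb2 and Plk1 in 3 each.

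Proteins that end mitosis were represented by Cdc20 and Ube2c, an activator and a ubiquitin-conjugating enzyme of the anaphase-promoting complex. Cdc20 rose from 4.69 ± 1.73 TPM in sham to 17.0 ± 3.94 TPM in UNx. Ube2c was at 4.57, 4.89, 2.48 and 5.83 TPM in sham and at 18.3, 23.0 and 13.6 TPM in UNx, with no overlap. Pbk, a mitotic kinase, had a difference of 2.34 ± 0.35 (SE), with 1.58 to 7.04 TPM in sham and 15.5 to 27.4 TPM in UNx. Cdca3, which promotes the degradation of a mitosis-blocking kinase, rose from 5.04 ± 2.28 to 20.2 ± 5.39 TPM. With each animal left out in turn, Ube2c passed in 5 of 7 cases, and Cdc20, Pbk and Cdca3 in 2 each.

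Of the members that act in DNA synthesis, Tk1 and Rrm2 rose. Tk1, thymidine kinase, rose from 3.90 ± 1.51 to 12.9 ± 4.20 TPM, and Rrm2, the small subunit of ribonucleotide reductase, rose from 30.1 ± 4.08 to 54.7 ± 10.8 TPM. Tk1 passed in 0 of 7 cases with an animal left out, with adjusted p-values up to 0.154 in limma. Replication helicase genes did not pass: Mcm3 differed by 1.03 ± 0.24 (SE, limma adjusted p = 0.0873) and Mcm2 by 0.30 ± 0.15 (adjusted p = 0.366). Pcna, the replication clamp, differed by 0.25 ± 0.11 with an adjusted p of 0.338 in limma. Mki67, a common marker of dividing cells, was at 0.812 ± 0.349 TPM in sham and 2.48 ± 0.565 TPM in UNx, with an adjusted p of 0.0838 in limma.

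The members that fell have roles earlier in the cycle. Cdkn1b, an inhibitor of cyclin-dependent kinases, was at 16.0, 14.2, 10.4 and 12.9 TPM in the sham animals and at 3.50, 4.75 and 3.08 TPM in the UNx animals. All 3 UNx animals were far below the lowest sham animal, and the difference of -1.61 ± 0.18 (SE) had an adjusted p of 0.0118 in limma, which became 0.0699 without UNx animal 1. Ccnd1, the cyclin that acts when cells leave rest, was at 109, 81.5, 101 and 78.5 TPM in sham and at 42.9, 43.4 and 53.5 TPM in UNx. The groups were again apart, with a difference of -0.99 ± 0.14 (SE, limma adjusted p = 0.0226). Ccnd1 lost its call when sham animal 1 or either of UNx animals 1 and 2 was left out, where its adjusted p in limma reached 0.104. The related inhibitor genes Cdkn1a and Cdkn1c differed by -0.17 ± 0.14 and -0.40 ± 0.34 (SE), and neither passed.

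**Figure D2:**
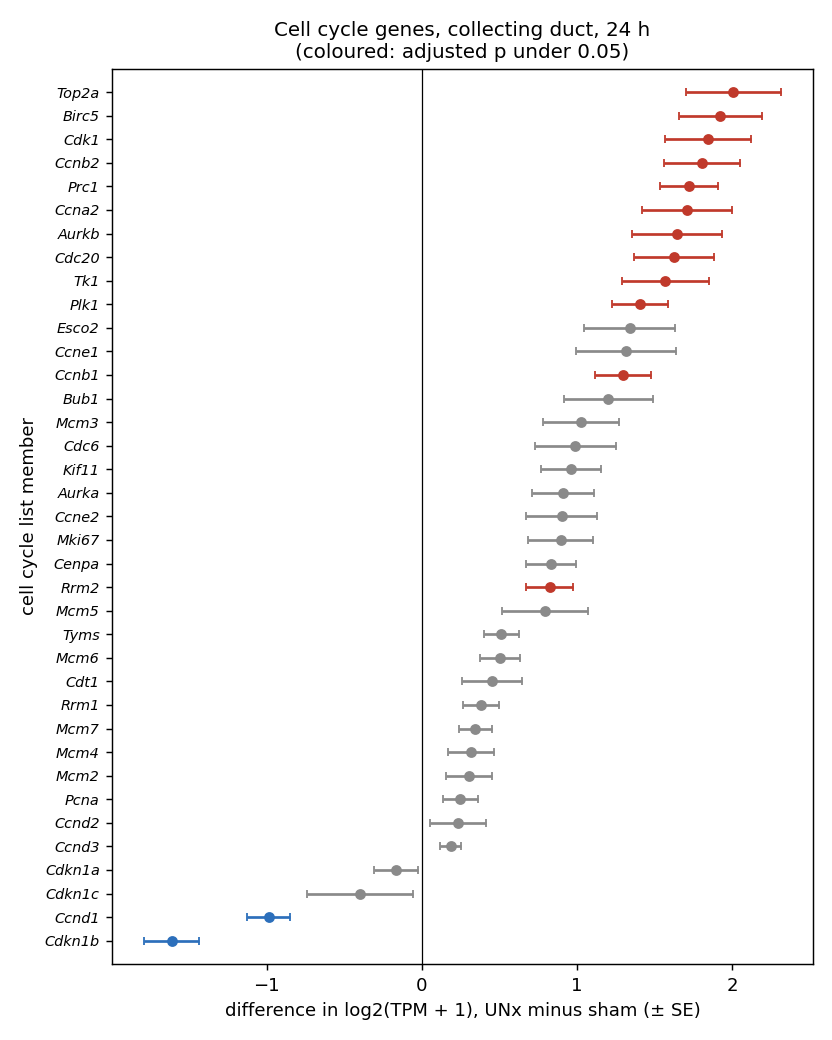
Difference in log2(TPM + 1), UNx minus sham, for the 37 members of the cell cycle list, with SE as bars (4 sham and 3 UNx animals). Coloured members had an adjusted p under 0.05: 12 to the right of 0 and, at the bottom, Ccnd1 and Cdkn1b to the left.

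Promoters of genes expressed late in the cell cycle are known to carry CCAAT boxes and a short element called the cell cycle genes homology region (CHR). Promoter sequences from RefSeq on build GRCm38.p6 were found for 36 of the 45 higher genes, and none was found for Stmn1, Tpx2, Pbk, Spc24, Kif20a, Ccna2, Khdrbs3, Aurkb and Vaultrc5. In the 250 bases before the annotated start, both strands were searched for the CHR letters TTTGAA or TTCGAA and for CCAAT, and matches could overlap. A CHR match was found in 15 of the 36 genes (41.7%), against 19.6% of all 27025 genes in the promoter table. CCAAT was found in 69.4% against 37.5%, and both in 12 of the 36, against 1892 of the 27025. A smaller share of the genes tested (10103 of 13775) and of the genes that fell (65 of 91) had a promoter in the table. Those held CHR in 14.6% and 13.8%, CCAAT in 40.9% and 35.4%, and both in 5.90% and 7.69%. All these percentages leave out the genes without a promoter in the table. Windows of 6 of the genes with the largest rise are shown, as the 120 bases before the start in the direction of transcription. CHR and CCAAT matches on either strand are in capitals (TTCAAA and ATTGG are their reverse complements).
Cdk1, chr10:69352913-69353032, minus strand: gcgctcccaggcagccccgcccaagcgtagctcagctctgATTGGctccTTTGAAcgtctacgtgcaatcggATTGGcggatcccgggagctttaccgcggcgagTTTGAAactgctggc
Top2a, chr11:99024190-99024309, minus strand: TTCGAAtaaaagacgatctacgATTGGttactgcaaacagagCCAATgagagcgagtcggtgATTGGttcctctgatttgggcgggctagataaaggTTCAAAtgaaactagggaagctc
Ube2c, chr2:164769809-164769928, plus strand: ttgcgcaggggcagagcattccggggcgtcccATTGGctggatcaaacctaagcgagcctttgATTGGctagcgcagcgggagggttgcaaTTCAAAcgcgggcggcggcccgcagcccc
Cdc20, chr4:118437344-118437463, minus strand: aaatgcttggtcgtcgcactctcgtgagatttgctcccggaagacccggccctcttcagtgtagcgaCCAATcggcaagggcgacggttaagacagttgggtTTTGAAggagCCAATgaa
Ccnb2, chr9:70421555-70421674, minus strand: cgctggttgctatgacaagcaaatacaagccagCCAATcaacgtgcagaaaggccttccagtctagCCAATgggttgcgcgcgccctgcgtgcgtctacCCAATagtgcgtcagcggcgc
Birc5, chr11:117849117-117849236, plus strand: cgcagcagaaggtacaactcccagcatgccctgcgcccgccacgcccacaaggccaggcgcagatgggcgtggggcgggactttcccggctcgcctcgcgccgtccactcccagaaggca
Cdk1, Top2a, Ube2c and Cdc20 hold both elements in these windows, Ccnb2 holds CCAAT only, and Birc5 holds neither. The windows were chosen after the matches were seen, and a match is a description of letters, not of a bound factor.

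The list of acid-base and intercalated cell genes held Atp4a and Kitl, the genes with the smallest p-values of the whole comparison. Atp4a, the catalytic subunit of the gastric-type proton-potassium pump, was at 325, 306, 318 and 326 TPM in the sham animals and at 799, 728 and 925 TPM in the UNx animals. The sham animals were close together and every UNx animal was far above them, with a difference of 1.34 ± 0.09 (SE) and an adjusted p of 0.00162 in limma. Also by library the groups were apart, with 273 to 382 TPM in 8 sham and 614 to 995 TPM in 7 UNx libraries. The related pump gene Atp12a averaged 30.5 ± 9.70 TPM in sham and 47.4 ± 15.8 TPM in UNx and did not pass (limma adjusted p = 0.376).

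Kitl encodes the ligand of the receptor tyrosine kinase Kit, which intercalated cells express. Kitl was at 116, 114, 104 and 107 TPM in the sham animals and at 28.7, 37.1 and 43.3 TPM in the UNx animals. The highest UNx animal was well below the lowest sham animal, with a difference of -1.77 ± 0.15 (SE) and an adjusted p of 0.00722 in limma. The 7 UNx libraries lay between 13.0 and 58.2 TPM, all below the 8 sham libraries at 88.0 to 144 TPM. The receptor gene Kit averaged 293 ± 43.2 TPM in sham and 268 ± 52.7 TPM in UNx and did not pass (limma adjusted p = 0.693).

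Of 38 members tested of this acid-base and intercalated cell list, Atp4a alone rose and Kitl, itself a growth factor gene, alone fell. The median difference was -0.0024. The vacuolar proton pump subunit Atp6v0a4 was at 107 to 191 TPM in sham and 80.8 to 83.7 TPM in UNx, and Atp6v1b1 at 562 to 1033 TPM and 385 to 561 TPM. Neither passed, at limma adjusted p-values of 0.0668 and 0.163. The base-secreting exchanger gene Slc26a4 averaged 1138 ± 127 TPM in sham and 1428 ± 140 TPM in UNx (adjusted p = 0.189 in limma). Slc4a1, the exchanger of acid-secreting cells, differed by 0.35 ± 0.26 (SE), and Foxi1, the transcription factor of intercalated cells, by 0.05 ± 0.11, with a sign that changed between settings. None of the 16 intercalated cell markers passed.

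Aqp2 was variable among sham animals. It was at 10222, 34047, 33734 and 12023 TPM in sham animals and at 48634, 30608 and 44731 TPM in UNx animals. Sham animals 1 and 4 were low, sham animals 2 and 3 overlapped with UNx animal 2, and the difference of 1.06 ± 0.44 (SE) had an adjusted p of 0.297 in limma. Aqp3 and Aqp4, the water channels of the basolateral side, differed by 0.74 ± 0.24 and 0.66 ± 0.22, and the vasopressin receptor gene Avpr2 by 0.31 ± 0.11 (SE), with overlap between the groups in each. None of the 26 vasopressin and water transport genes tested passed, with 5 at an unadjusted p under 0.05 in the higher direction, against 5.55% of all genes.

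The subunits of the epithelial sodium channel showed small differences: 0.08 ± 0.15 (SE) for Scnn1a, -0.04 ± 0.09 for Scnn1b and 0.01 ± 0.09 for Scnn1g, whose signs changed between settings. Scnn1b averaged 1066 ± 41.4 TPM in sham and 1041 ± 126 TPM in UNx. Of 26 sodium, potassium and aldosterone genes tested, Zbtb16 alone passed. Zbtb16, a transcription factor gene induced by steroid hormones, was at 27.9, 17.5, 24.1 and 21.4 TPM in sham and at 8.36, 8.20 and 12.3 TPM in UNx animals. Its groups were apart, with a difference of -1.17 ± 0.19 (SE, limma adjusted p = 0.032), and it passed in 2 of 7 cases with an animal left out. Nr3c2, the mineralocorticoid receptor gene, differed by -0.32 ± 0.10 (adjusted p = 0.165 in limma).

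**Figure D3:**
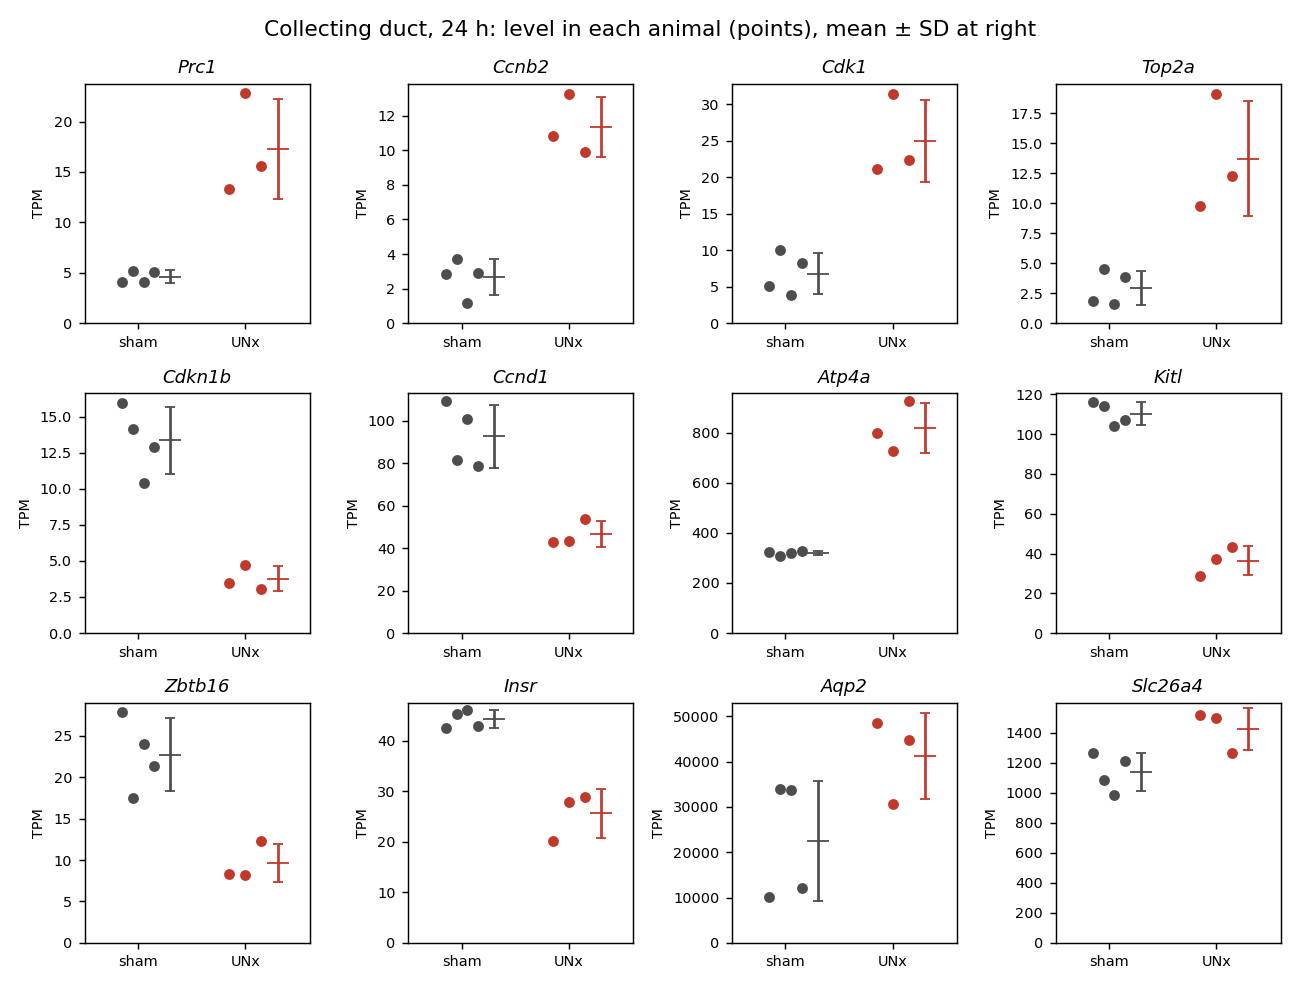
Level in TPM (y axis, from 0) of 12 genes in each sham animal (grey points, 4) and each UNx animal (red points, 3), with the mean ± SD at the right of each group. Groups are apart for the cell cycle genes, Atp4a, Kitl, Zbtb16 and Insr, while Aqp2 overlaps and the lowest UNx animal of Slc26a4 is level with the highest sham animal.

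Growth factor and insulin signalling genes lay mostly lower, with 6 of 30 above 0 and a median of -0.24, against 5759 of 13775 genes above 0 overall. The list includes Egf, also a gene of the thick ascending limb, which was at 59.7, 695, 3.92 and 21.4 TPM in sham and at 2.39, 0.95 and 4.68 TPM in UNx, highest in the sham animals with libraries rich in thick ascending limb markers; its difference of -2.50 ± 1.01 (SE) had an adjusted p of 0.275 in limma, and the part of those cells was not tested. Insr, the insulin receptor gene, was at 42.6, 45.4, 46.1 and 42.9 TPM in sham and at 20.2, 27.8 and 28.9 TPM in UNx animals. It fell by 0.80 ± 0.13 (SE) with an adjusted p of 0.0321 in limma, and was the only one of 30 members tested to pass. Kitl is not a member of this list. With an animal left out, Insr passed in 1 of 7 cases, without UNx animal 3. In all, 11 members had an unadjusted p under 0.05 in the lower direction, against 9.97% of all genes. Tgfa, an EGF receptor ligand gene, averaged 14.2 ± 1.27 TPM in sham and 10.8 ± 0.785 TPM in UNx, and the transcription factor gene Foxo3 8.37 ± 0.723 and 5.24 ± 1.64 TPM, and neither passed.

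Of 28 BMP, TGF-beta and Id genes tested, none passed, and 8 had an unadjusted p under 0.05 in the lower direction, against 9.97% of all genes. Id3, an inhibitor of transcription factors induced by BMP, averaged 325 ± 48.6 TPM in sham and 217 ± 7.09 TPM in UNx, with no overlap and a limma adjusted p of 0.0638. Of 16 tubular injury genes tested, none passed and 6 had an unadjusted p under 0.05 in the lower direction, against the same 9.97%. Clu, which encodes the secreted chaperone clusterin, averaged 777 ± 147 TPM in sham and 411 ± 97.0 TPM in UNx (adjusted p = 0.0697 in limma). The chemokine gene Ccl20, which is in none of these lists, was at 19.9, 2.79, 11.7 and 13.0 TPM in sham animals and at 0, 0 and 0.0367 TPM in UNx animals. By library it was listed at 0 in 6 of 7 UNx libraries and varied widely in sham, with 33.4, 5.66 and 0 TPM in the libraries of sham animal 4. Its adjusted p of 0.0366 in limma did not hold in 10 of 20 alternatives.

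Genes of ribosomes, oxidative phosphorylation and glycolysis had medians near 0, while mitochondrially encoded genes did not. Of 74 ribosomal protein genes, Rps25 alone passed, with 397 to 442 TPM in sham and 233 to 293 TPM in UNx (limma adjusted p = 0.021; it passed in 3 of 7 cases with an animal left out), and the median member differed by -0.02. None of 61 oxidative phosphorylation genes and none of 21 glycolysis genes passed, with medians of 0.05 and 0.07. Of 7 mitochondrially encoded genes none passed, and 3 had an unadjusted p under 0.05 in the lower direction (9.97% of all genes). Their median was -0.31, with 0 of 7 above 0. None of 36 ribosome biogenesis genes and none of 29 mTOR pathway genes passed, with medians of 0.04 and -0.02. The clock, immediate early, sterol and fatty acid synthesis, NRF2, heat shock, amino acid response, interferon and prostaglandin lists had no member past the threshold either. Some of their medians were not near 0: -0.47 for immediate early genes (2 of 21 above 0), -0.28 for interferon genes (3 of 23) and 0.16 for amino acid response genes (14 of 16). The clock list with Dbp, Nr1d1 and Per3 had a median of -0.33 (2 of 10 above 0). That of the clock list with Arntl, Clock and Npas2 was 0.14 (5 of 6). Over all genes tested, 5759 of 13775 were above 0. In the heat shock and unfolded protein list, 6 of 30 members had an unadjusted p under 0.05 in the lower direction (9.97% of all genes), among them Hsp90ab1 at 1390 ± 153 TPM in sham and 1050 ± 70.8 TPM in UNx.

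Other genes with large falls included Anp32a, Mitf, Aff4, Kbtbd11, Nbeal1, Exph5 and Arhgef7, each apart between the groups and lower by 1.07 to 1.23. Mitf, a transcription factor of lysosomal and pigment cell genes, was at 18.9, 16.6, 18.5 and 13.1 TPM in sham and at 5.43, 6.59 and 9.11 TPM in UNx animals. Aff4, a scaffold of the super elongation complex of transcription, was at 101, 102, 65.4 and 87.5 TPM in sham and at 42.4, 42.7 and 45.8 TPM in UNx. Exph5, an effector of Rab proteins in vesicle transport, averaged 47.3 ± 6.02 and 23.4 ± 6.19 TPM. In each of these the lowest sham animal lay above the highest UNx animal. That was a condition for naming them, and it held for 9.51% of all genes tested. With each animal left out in turn, Kbtbd11 passed in 4 of 7 cases, Aff4, Arhgef7 and Nbeal1 in 3, Mitf in 2, and Anp32a and Exph5 in 1.

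Genes that fell had a longer median transcript than those that rose. The longest annotated transcript had a median of 6.55 kb among the 91 genes that fell, 2.64 kb among the 45 that rose and 3.07 kb among all genes tested. At least 8 kb was reached by 33 of the 91 (36.3%), by 0 of the 45 and by 4.80% of all genes tested. Syne2, which encodes a giant nuclear envelope protein and has a transcript of 21.7 kb, was at 178, 205, 194 and 185 TPM in sham and at 101, 113 and 124 TPM in UNx animals. Apc, an inhibitor of Wnt signalling with a transcript of 12.8 kb, averaged 31.9 ± 3.59 and 17.4 ± 2.19 TPM. Both were chosen as examples after their values were seen.

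Genes were split into 5 groups of nearly equal size by this length. In group 5, from 4.96 kb upward, the median difference was -0.16, and 57 genes fell and 3 rose. The genes that fell in group 5 included Kitl (5.65 kb) and Aff4 (10.1 kb). Groups 1 to 4 had medians between -0.04 and 0.004 and held 10, 5, 2 and 17 of the genes that fell. The median deviation of group 5 from the sham mean was -0.30 in UNx animal 1, -0.10 in UNx animal 2 and -0.07 in UNx animal 3, against -0.06 to 0.08 in the 4 sham animals. All 3 UNx animals were thus lowest, by a small margin over sham animal 1 in the case of UNx animal 3. UNx animal 1 also held the library with the fewest genes detected, 12992. Mitochondrial ribosomal RNA took 0.25% to 0.42% of the sham and 0.13% to 0.26% of the UNx libraries. Its part, and that of transcript length, in the fall of these genes was not tested. At 72 h the median of group 5 was -0.0029.

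**Figure D4:**
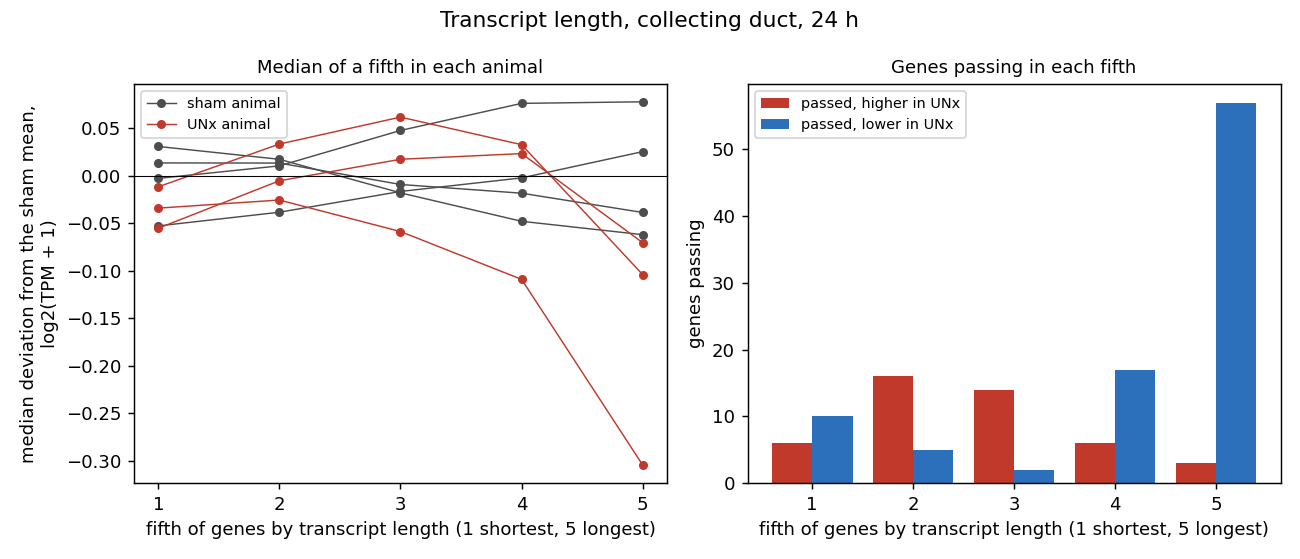
Genes tested were split into 5 groups, from shortest (1) to longest (5), by the length of their longest annotated transcript (x axis). Left, the median deviation from the sham mean in log2(TPM + 1) for each sham animal (grey, 4) and UNx animal (red, 3), which reaches -0.30 in UNx animal 1 for group 5. Right, the number of genes that passed, with 57 lower and 3 higher in group 5.

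The genes that rose at 24 h were followed in other animals, the 4 sham and 4 UNx mice taken at 72 h. At that time 80 genes (0.581%) were higher and 2 (0.0145%) lower over 13770 genes tested. Of the 45 genes that rose at 24 h, 33 were also called higher at 72 h, which is 73.3% of the 24 h genes and 41.2% of the 72 h genes. Their median difference was 1.34 at 24 h and 1.67 at 72 h over the 44 that could be tested. Cdk1 differed by 1.85 at 24 h and 2.23 at 72 h, and Birc5 by 1.93 and 1.97. Atp4a differed by 1.34 at 24 h and by 0.72 at 72 h, where it did not pass (limma adjusted p = 0.700).

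Of the 91 genes that fell at 24 h, none passed at 72 h, and the median went from -0.77 to -0.18. An unadjusted p under 0.05 in the same direction as at 24 h was reached there by 8 of the 91. Among the genes that did not pass at 24 h it was reached by 747 of 13118. The same direction, whatever the p, was found in 77 of the 91 (84.6%), against 60.2% of the genes that did not pass at 24 h. Kitl differed by -1.77 at 24 h and -0.45 at 72 h, Cdkn1b by -1.61 and -0.26, and Ccnd1 by -0.99 and 0.08. The difference between both effects was tested for 13253 genes, and limma called 0 (0%), with 658 at an unadjusted p under 0.05. So none of these contrasts between times was established. The smallest adjusted p was 0.637, for genes that included Rps25, at -0.72 and 0.23, and Tlr3, a receptor of double-stranded RNA, at -0.37 and 0.38.

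**Figure D5:**
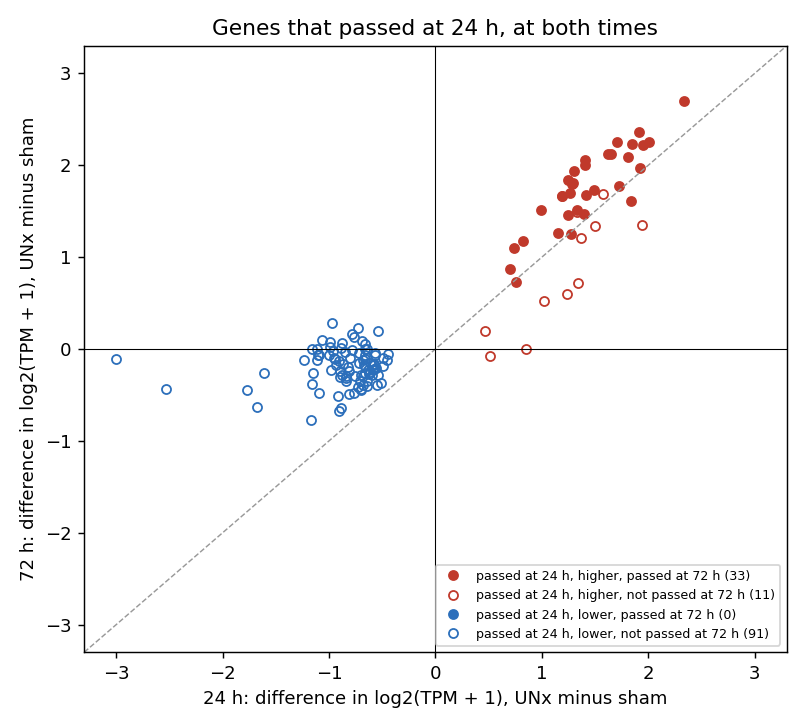
Difference in log2(TPM + 1), UNx minus sham, at 24 h (x axis) and 72 h (y axis) for genes that passed at 24 h, with different animals at each time. Filled points passed at 72 h too: 33 of the genes that rose, near or above the dashed line of equal differences, and 0 of the 91 that fell, which lie between that line and 0 or above 0.

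The same operation was compared between the collecting duct and PT-S1, the earliest proximal tubule segment, at 24 h, with 3 sham and 4 UNx animals in PT-S1. In PT-S1 alone 0 of 11874 genes (0%) passed in limma, with 2109 at an unadjusted p under 0.05. The difference of both effects passed for 15 of 10988 genes (0.137%). Only genes with a mean of at least 1 TPM in both segments were tested for it. Atp4a, Prc1, Ube2c, Ccnb2, Plk1, Pbk, Top2a, Cdca3 and Aurkb were not among them, so their effects could not be compared. The labels do not say whether both segments came from the same mice, and the test treated them as separate animals. Kitl differed by -1.77 in the collecting duct and by 0.09 in PT-S1, with a difference of -1.85 ± 0.34 (SE, limma adjusted p = 0.0429). Birc5 differed by 1.93 and -0.21, Tk1 by 1.57 and -0.45, and Nfix, a transcription factor gene, by 0.85 and -1.48, with limma adjusted p-values of 0.0372, 0.0366 and 0.0362 for the differences. Nfix was named because of its small p in this same test. Cdk1 differed by 1.85 and 0.36 and Cdkn1b by -1.61 and -0.22, and their differences of effects did not pass, at limma adjusted p-values of 0.159 and 0.0873. The count of 15 became 0 without sham animal 1, sham animal 3, UNx animal 1 or UNx animal 2 of the collecting duct, 1 without its sham animal 4 and 6 without its UNx animal 3. Leaving out PT-S1 animals moved it to between 0 and 163.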

How the data were processed

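RNA-seq had been made from dissected collecting ducts of 4 sham and 3 UNx mice. The authors deposited TPM values per gene and library, and the submitters' processing notes name STAR, RSEM 1.3.3 and build GRCm39 without saying what each was used for. The annotation release is not given in the sources used here. Sequencing depth is unknown, so no counting interval or floor was computed.

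Column names and sample titles gave each library's animal, and log2(TPM + 1), with a pseudocount of 1, was averaged over the libraries of an animal. Genes with a mean of at least 1 TPM were compared with limma 3.58.1 in R 4.3.3, as a linear model of the group with empirical Bayes moderation and a mean-variance trend. The two-sided p-values were adjusted by Benjamini-Hochberg over all genes tested, the threshold was 0.05, and they measure only the spread between these animals. Every difference is UNx minus sham on that log2 scale, which understates the change of low genes. Differences of effects against 72 h and PT-S1 were tested in a model of the 4 groups. The script was tested on simulated data.

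The part of the series, its gene lists and markers were chosen with earlier results of these data known. Named genes were 11 segment markers, up to 12 genes per direction with an adjusted p under 0.05, no overlap of animals and a group mean of at least 10 TPM, up to 3 members per list with the smallest p, and up to 3 genes per difference of effects. For the genes named per direction, no overlap was thus a condition and is no separate result. Other genes are said to be chosen after their values were seen or are cell cycle, acid-base or marker list members. Alternatives changed the pseudocount, filter, scaling, averaging, replicate, weights, trend and block, and left out each animal; 1 more, without 3 libraries, was chosen after seeing the data. Figures were drawn with matplotlib. Transcript lengths come from GENCODE transcripts on build GRCm38, matched by gene identifier, and promoters from RefSeq on GRCm38.p6.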

Additional observations from a re-analysis of the deposited data

Results flagged for a closer look

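In groups of 4 animals, the highest or lowest animal was set against the rest, and chance marks about 1 in 20 such groups. Among the sham animals, Vaultrc5 was at 4.69 TPM in animal 4 and listed at 0 in the other 3. Cldn4 was at 578 TPM in sham animal 1, against 289 to 304 TPM in the others. Per3 was at 5.57 TPM in sham animal 4, against 2.90 to 3.03 TPM, and Foxo3 at 7.30 TPM in sham animal 4, against 8.54 to 8.86 TPM. Endothelial markers summed to 105 TPM in sham animal 1, against 218 to 245 TPM in the other sham animals, and erythrocyte markers to 144 TPM in sham animal 1, against 0.900 to 2.23 TPM.

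The effect of UNx differed between the collecting duct and PT-S1 at 24 h, by limma's test of the difference itself, for 7 of the genes named. Over all genes tested it differed for 15 of 10988 (0.137%). Nfix, Irf2bp2 and Zfp777 were named because of their small p in this same test, so their passing is no separate result. In the collecting duct alone Irf2bp2 and Zfp777 did not pass, at limma adjusted p-values of 0.0838 and 0.0849. The collecting duct effect minus the PT-S1 effect was 2.34 for Nfix, 2.13 for Birc5, -1.85 for Kitl, 2.02 for Tk1, 2.01 for Irf2bp2, 3.86 for Vaultrc5 and 1.43 for Zfp777, with adjusted p-values from 0.0362 to 0.0429. Vaultrc5, a vault RNA gene, was listed at 0 in 7 of 8 sham and 3 of 7 UNx collecting duct libraries.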

How the results depend on the processing

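Of the 100 named genes, 30 passed, and all 30 kept their direction in each of up to 20 alternatives. The groups of animals did not overlap for any of the 30, so leaving out an animal could not reverse their direction. With each of the 7 animals left out, Atp4a, Kitl and Prc1 (3 of the 30) passed every time. Direction changed for genes near 0: Scnn1a was -0.00897 with every library as a replicate, Foxi1 -0.0069 with the replicate block, and Scnn1g -0.0021 without the 3 sham libraries rich in thick ascending limb markers, a setting chosen after seeing the marker sums. Leaving out an animal gave -0.0105 to 0.114 for Foxi1, -0.0394 to 0.0643 for Scnn1g and -0.133 to 0.0466 for Scnn1b. Without the filter on low values 1 gene passed, higher in UNx and Atp4a itself, with 0 lower and 0 of the cell cycle list, among 26538 tested genes. With every library as a replicate 1027 passed (362 higher, 665 lower, 27 cell cycle members higher), while a random effect of the animal gave 485 (171, 314 and 22). Higher genes numbered 82 after quantile normalization, 78 after median-ratio scaling and 76 with array weights. Leaving out 1 animal gave 7 to 78 passing genes, 3 to 26 higher, 2 to 59 lower and 1 to 8 cell cycle members higher. The cause of these shifts was not tested.

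The animal numbers did not pair the samples (correlations of the deviations 0.05, -0.18 and -0.08). With the replicate block 0 genes passed in limma, higher or lower, including 0 cell cycle members, and 1924 had an unadjusted p under 0.05. The difference between 24 h and 72 h gave 1 gene with every library as a replicate and 0 to 1 with an animal left out. The difference between the collecting duct and PT-S1 gave 25 genes with a pseudocount of 5, 9 with a mean TPM of at least 5, 43 with no filter, 31 after quantile normalization, 24 after median-ratio scaling, 53 with every library as a replicate, likewise 53 with a random animal effect, 1468 with array weights, and 0 to 163 with an animal left out. Depth is unknown, so what it limits cannot be given.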
